A study of Mus musculus with 26 samples.

Results

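The genes described here carry a Zfp symbol followed only by digits, the mouse name for many zinc finger proteins. Zfp36 and Zfp42 were left out. A gene was kept where its brightest probe set with exactly 1 gene symbol had a mean level of 7 or more over all 26 arrays. Levels are normalized log2 signals, so that 1 unit is a 2-fold difference in signal. Of the 22180 genes on the arrays with such a probe set, 334 had a Zfp symbol, and 232 of these reached the level minimum. The members were thus selected by symbol and mean level, with earlier results of these data known, and the level is given here as a description. Just inside the minimum were Zfp160 at 7.01, Zfp763 at 7.02 and Zfp39 at 7.02. Just outside were Zfp619 at 6.98, Zfp768 at 6.98 and Zfp938 at 6.97. The brightest members were Zfp706 at 12.39, Zfp207 at 11.96 and Zfp106 at 11.96. Of the 102 Zfp genes below the minimum, 66 were bright enough to be tested with the other genes and 36 were not.

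The samples were J1 mouse embryonic stem cells, an established line that was grown on irradiated mouse embryonic fibroblasts in medium with leukemia inhibiting factor. PolyA RNA was hybridised to Affymetrix arrays. A time course held 18 arrays in 9 groups of 2: cells with a scrambled control, a Mettl14 knockdown or a Mettl3 knockdown, each at 0, 4 and 8 h. A repeat set held 8 arrays in 4 groups of 2, all titled 0 h: a Mettl14 knockdown and a Mettl3 knockdown, each with a scrambled control of its own. In both repeat controls the description of the second array says 4 h, against its title. The labels call the arrays of a group biological replicates, and do not name the agent that separates 0, 4 and 8 h. They describe both lentiviral shRNA with puromycin selection and siRNA transfection, and the sample descriptions name shRNA, so which method made which array, and whether a line came from 1 clone, are not given in the sources used here.

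The short sequences against which the labelled siRNAs were directed are shown as the only knockdown sequences the labels give. Which arrays, if any, were made with them is not given in the sources used here.
Mettl3 target 1: ggactgcgatgtgattgta
Mettl3 target 2: gacgaattatcaataagca
Mettl14 target 1: ccggatgtacagaggaaat
Mettl14 target 2: gggaactcatcagactaaa
Mettl14 target 3: gcacctcggtcatttatat

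Zinc finger proteins of the C2H2 kind read DNA through tandem fingers, each folded around a zinc ion by paired cysteines and histidines. Many of the Zfp genes also encode a KRAB domain, which recruits the corepressor Trim28 and with it the histone methyltransferase Setdb1, and in embryonic stem cells this machinery silences retroelements and guards imprinted loci. Messenger RNAs of zinc finger and other transcription factors are known as a short-lived class. Mettl3 and Mettl14 form the methyltransferase that writes N6-methyladenosine into messenger RNA, a mark known to shorten the life of many transcripts.

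The checks of the arrays were these. The Mettl14 signal in its knockdown was 30.9% of the scrambled control in the time course and 39% in the repeat set. The probe set shared by Mettl3 and its neighbour Tox4 stood at 26.9% and 23.6% of control in the Mettl3 knockdowns. In the Mettl14 knockdowns this shared probe set stood at 70.5% and 73.2%, and in the Mettl3 knockdowns Mettl14 stood at 93.5% and 86.1%. Replicate arrays correlated at 0.987 to 0.993 over all probe sets. Of the embryonic stem cell markers, Nanog, Sox2, Utf1 and Tdgf1 had levels of 12.4 to 12.8 in the scrambled control at 0 h, Pou5f1 and Esrrb 9.34 and 8.59, and Dppa5a was dim at 5.73. The number of arrays, 2 in each group, limits the precision of every value below.

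The Zfp-named genes lost signal over the time course, and most of the loss was there at 4 h. In scrambled control cells 150 of the 232 members were lower at 4 h and 182 were lower at 8 h, where 13.5% and 21.6% of the 14787 genes tested were lower. Only 11 members were higher at either time, where 32.7% and 39.2% of all genes were higher. The median member change was -0.45 at 4 h and -0.73 at 8 h, against 0.13 and 0.15 for all genes tested, so that a median of 60.2% of the 0 h signal was left at 8 h. A gene was counted as lower or higher at a Benjamini-Hochberg adjusted p below 0.05 in limma, adjusted over the 14787 genes. The counts describe the members and are no test of the list. The level minimum was a mean over arrays of all times, so a gene could pass through bright 0 h arrays. Zfp39 did so, with 7.49 at 0 h and 6.51 at 8 h in scramble. The loss of such members is in part set by the selection, and their number was not counted.

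Both knockdowns showed the loss. In the Mettl14 knockdown 140 members were lower at 4 h and 162 at 8 h, where 13.1% and 19.4% of all genes were lower, and 13 and 15 members were higher, where 33% and 36.8% of all genes were higher. In the Mettl3 knockdown 136 and 160 members were lower, where 13.1% and 19.2% of all genes were lower, and 14 and 15 were higher, where 31.5% and 36.9% of all genes were higher. The median changes at 8 h were -0.59 in the Mettl14 knockdown and -0.57 in the Mettl3 knockdown, or 66.6% and 67.6% of the 0 h signal left. At 4 h they were -0.43 and -0.40. Between 4 and 8 h the median member changed by a further -0.24 in scramble, -0.14 in the Mettl14 knockdown and -0.13 in the Mettl3 knockdown. The medians of other genes of level 7 or more were -0.014, -0.0014 and 0.013.

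**Figure D1:**
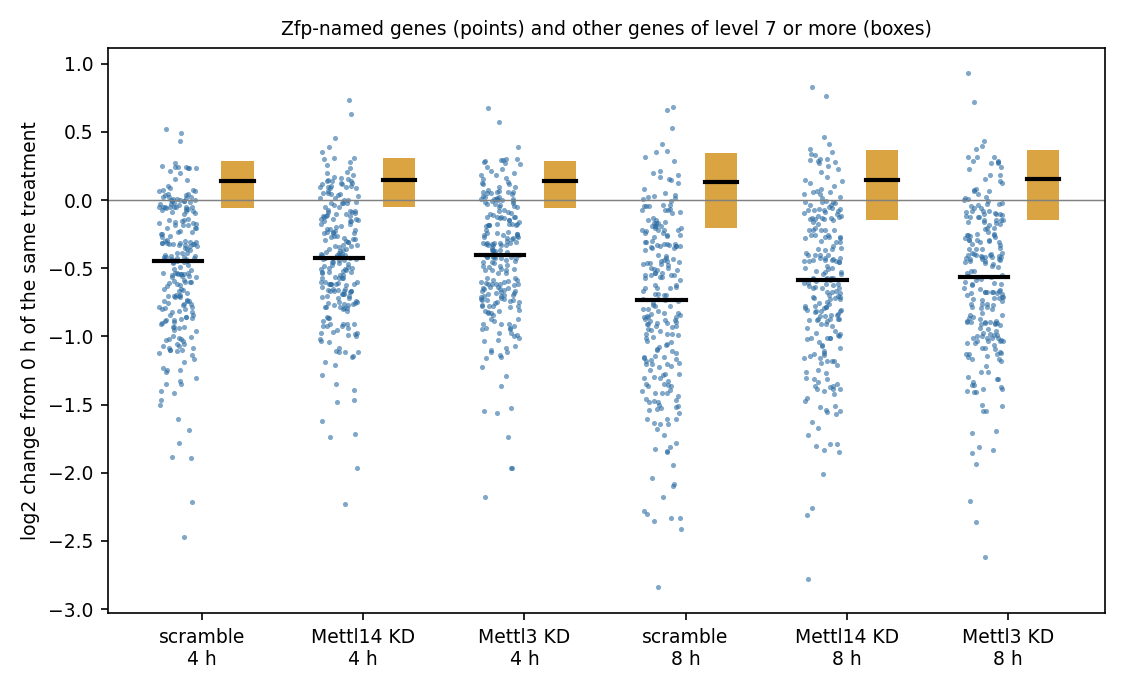
The log2 change from 0 h of the same treatment is plotted for each of the 232 Zfp-named genes (points) at 4 and 8 h, with the interquartile range of the 10508 other genes of level 7 or more as boxes and medians as black lines. The members' medians lie between -0.40 and -0.73 and those of the other genes between 0.14 and 0.15.

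The same members were lower in the separate treatments, which share no array in these comparisons. At 8 h 151 members (65.1%) were lower in all 3 treatments, where 15% of all genes tested were, and at 4 h 124 members were, where 9.43% of all genes were. Across the 232 genes the 8 h change in scramble correlated with that in the Mettl14 knockdown at r = 0.928 and with that in the Mettl3 knockdown at r = 0.914, and over all genes tested the same correlations were 0.894 and 0.887. Genes are not independent replicates, and the points share their probe sets and the joint normalization. A loss of at least 2-fold at 8 h was seen for 80 members in scramble, 57 in the Mettl14 knockdown and 53 in the Mettl3 knockdown, where 5.23%, 3.94% and 3.71% of all genes had one. At 4 h 39, 22 and 21 members had one, where 2.2%, 1.89% and 1.89% of all genes did. A loss of at least 4-fold at 8 h was seen for 11, 4 and 3 members, where 0.791%, 0.527% and 0.5% of all genes had one.

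Because the arrays were normalized together, a change is relative to the bulk of genes. When each array was shifted so that 39 transcripts known as long-lived kept an equal median, the median of all genes moved by -0.21 to -0.33 in the 6 comparisons over time. The split of all tested genes in scramble at 8 h then turned from 3197 lower and 5799 higher to 5424 lower and 898 higher. On that scale the median member change at 8 h was -1.03 in scramble, -0.92 in the Mettl14 knockdown and -0.88 in the Mettl3 knockdown. There 2 members were higher in each treatment, where 898, 851 and 929 of all genes tested were. Such a shift moves members and other genes by the same amount, so by construction it leaves the gap between them as it is.

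Most genes of like level did not share the loss. Each member was set against the median change of the other tested genes in its bin of mean level, bins being 0.5 units wide. In scramble at 8 h 9.42% to 33.9% of the other genes in a bin were lower, against 50% to 100% of its members. The median difference was -0.58 at 4 h and -0.83 at 8 h in scramble, with 217 of the 232 members below their bin's median at both times. In the Mettl14 knockdown it was -0.58 and -0.74, with 216 and 214 members below, and in the Mettl3 knockdown -0.52 and -0.71, with 211 and 215 below. The single arrays gave -0.76 and -0.88 for the pair of scramble arrays at 8 h, -0.76 and -0.71 in the Mettl14 knockdown, and -0.67 and -0.71 in the Mettl3 knockdown. At 4 h the 6 arrays gave -0.50 to -0.62, so that every array of 4 and 8 h was below 0. The 0 h arrays serve as the reference here, and each pair lies evenly about 0 by construction.

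The size of the loss did not follow the level. Across the members the mean level and the 8 h change in scramble correlated at r = 0.0701. In scramble at 8 h the dimmest bin, from 7 to 7.5, held 63 members with a median change of -0.78 against 0.14 for 1467 other genes, and 81% of its members were lower against 16.5% of the others. The bin from 8 to 8.5 held 37 members at -0.91 against 0.08. The bin from 10 to 10.5 held 9 members at -1.06 against 0.17 for 947 other genes. Above level 11 there were 8 members, whose bins had medians between -0.17 and -0.45, with few members in each.

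**Figure D2:**
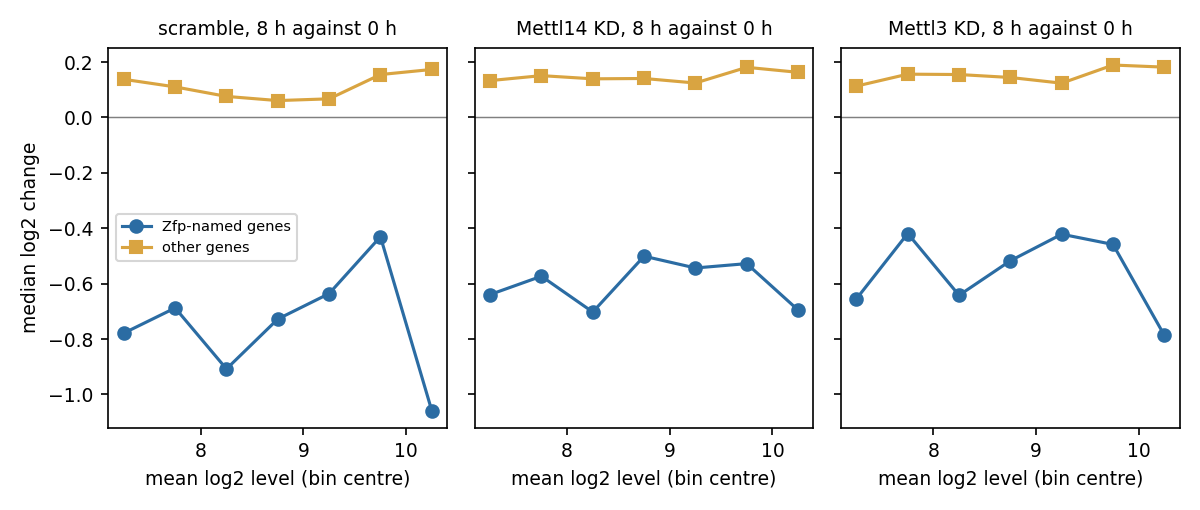
Median log2 change at 8 h against 0 h is plotted by bin of mean log2 level for Zfp-named genes (circles) and other genes (squares) in scramble, Mettl14 knockdown and Mettl3 knockdown, for bins with 9 or more members. In scramble the members' medians run from -0.43 to -1.06 while the other genes' medians run from 0.06 to 0.17.

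The largest loss was that of Zfp296, a gene with high expression in pluripotent cells. Its level in scramble was 11.49 and 11.60 at 0 h, 9.06 and 9.09 at 4 h, and 8.64 and 8.77 at 8 h. In the Mettl14 knockdown it was 10.99 and 11.02 at 0 h, 8.82 and 8.73 at 4 h, and 8.20 and 8.25 at 8 h. In the Mettl3 knockdown it was 10.86 and 10.98, then 8.85 and 8.64, then 8.42 and 8.19. In each treatment every later array lay far below both 0 h arrays, and the greater share of the fall came in the first 4 h. The 8 h change was -2.84 ± 0.09 (SE, n = 2 arrays a group) in scramble, -2.78 ± 0.09 and -2.62 ± 0.09 in the knockdowns (limma adjusted p = 5.4e-10, 6.98e-10 and 1.05e-09), so that 13.9%, 14.6% and 16.3% of the signal was left. The 250 bases before its annotated start, chr7:19577037-19577286 on the plus strand of GRCm38.p6 from RefSeq, are printed with the 14 CG dinucleotides in capitals as the upstream region of the member with the largest loss.
Zfp296 upstream: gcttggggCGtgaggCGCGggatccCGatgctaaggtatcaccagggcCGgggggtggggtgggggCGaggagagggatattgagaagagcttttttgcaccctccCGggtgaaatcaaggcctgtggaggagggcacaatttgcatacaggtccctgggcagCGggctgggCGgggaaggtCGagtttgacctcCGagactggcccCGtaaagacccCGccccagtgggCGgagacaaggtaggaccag

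Zfp599, Zfp84, Zfp719, Zfp566, Zfp781, Zfp1 and Zfp948 made up the rest of the 8 largest losses by the mean over the treatments. Of these, Zfp781 stood at 8.35, 6.66 and 6.02 in scramble at 0, 4 and 8 h. It reached the level minimum of 7 through its brighter 0 h arrays, so its place here is in part set by the selection. Zfp599 stood at 10.41 and 10.36 in scramble at 0 h, at 8.17 and 8.16 at 4 h, and at 8.12 and 7.93 at 8 h, so that nearly all of its fall was over at 4 h. Its 8 h changes were -2.36 ± 0.12, -2.26 ± 0.12 and -2.21 ± 0.12 in scramble and the Mettl14 and Mettl3 knockdowns. Zfp84 went from 9.35 and 9.21 to 7.14 and 7.06 at 8 h in scramble, from 9.04 and 8.96 to 6.64 and 6.73 in the Mettl14 knockdown and from 9.18 and 9.09 to 6.85 and 6.69 in the Mettl3 knockdown. Its signal left at 8 h was 22.1%, 20.1% and 19.4%, about equal in the 3 treatments. For Zfp719, Zfp566, Zfp781, Zfp1 and Zfp948 the 8 h changes lay between -2.10 and -2.33 in scramble and between -1.55 and -2.01 in the knockdowns. Zfp948 fell from 10.25 and 10.07 to 8.14 and 7.58 in scramble, from 10.83 and 10.62 to 8.76 and 9.11 in the Mettl14 knockdown, and from 10.68 and 10.60 to 9.13 and 9.06 in the Mettl3 knockdown. The scramble arrays at 8 h ended below all 8 h arrays of the knockdowns, but the difference of its change was not called in either knockdown (0.51 ± 0.23, adjusted p = 0.242, and 0.76 ± 0.23, adjusted p = 0.0957).

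A few members moved the other way. At 8 h 9 members were higher in all 3 treatments, where 26.8% of all genes tested were. The 6 members with the least loss or a rise were Zfp526, Zfp185, Zfp580, Zfp277, Zfp853 and Zfp523. Zfp185, which encodes a LIM-domain protein with an actin-binding role in place of a DNA-binding one, stood at 7.79 and 7.80 in scramble at 0 h, 8.27 and 8.30 at 4 h, and 8.44 and 8.47 at 8 h. Its 8 h changes were 0.66 ± 0.09, 0.77 ± 0.09 and 0.72 ± 0.09, and with the long-lived transcripts held equal they were 0.36, 0.44 and 0.40 and still called. Zfp580 rose by 0.52 ± 0.06 in scramble, 0.46 ± 0.06 in the Mettl14 knockdown and 0.43 ± 0.06 in the Mettl3 knockdown, but with the long-lived transcripts held equal its values were 0.23, 0.13 and 0.12 and only the first was called. Zfp526 rose by 0.68 ± 0.17 to 0.93 ± 0.17 from its brightest probe set, while the mean of its probe sets gave -0.0551 in scramble at 8 h and was not called in the knockdowns, so its probe sets disagreed. With the long-lived transcripts held equal its scramble value was 0.39 and not called. Zfp277, a partner of the Polycomb protein Bmi1, and Zfp853 rose by 0.28 to 0.41, values that lay between -0.03 and 0.11 with the long-lived transcripts held equal and were then not called. Zfp523 had 0.21 ± 0.09 in scramble, which was not called, and rose by 0.33 ± 0.09 and 0.38 ± 0.09 in the knockdowns, where the values were 0.01 and 0.06 and not called with the long-lived transcripts held equal.

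**Figure D3:**
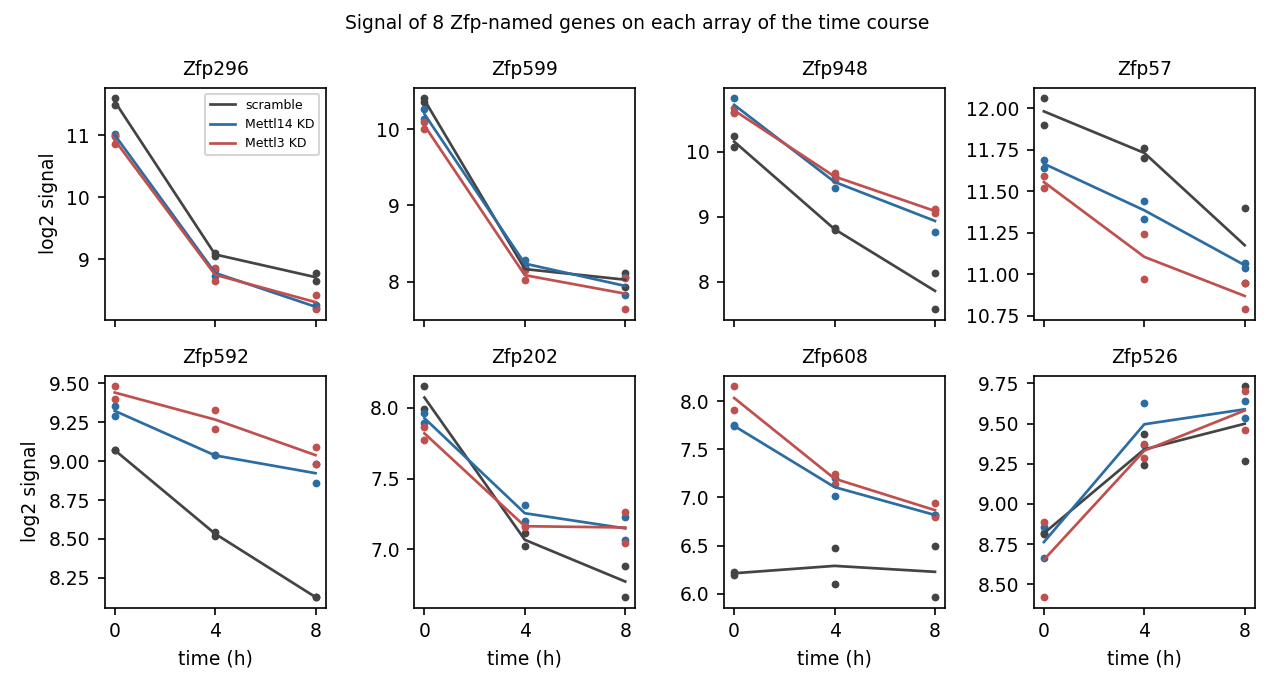
Log2 signal on each array of the time course is plotted against time for 8 Zfp-named genes, with points for arrays and lines through the means of the 2 arrays for scramble, Mettl14 knockdown and Mettl3 knockdown. Zfp296 falls in every treatment, Zfp592 ends higher in both knockdowns than in scramble, Zfp608 starts high in the knockdowns and falls toward the scramble level, and Zfp526 rises.

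Of the members with roles described in the literature, 20 were above the level minimum. Zfp143, Zfp91 and Zfp335, which were also listed, are not analysed here. In scramble 11 of the 20 were lower at 4 h and 15 at 8 h, where 13.5% and 21.6% of all genes tested were. At 8 h 15 and 13 were lower in the Mettl14 and Mettl3 knockdowns, where 19.4% and 19.2% of all genes were. None was higher in the 3 comparisons at 8 h, where 36.8% to 39.2% of all genes were. Their median 8 h changes were -0.61, -0.61 and -0.55.

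Among members that guard imprints or silence retroviruses, Zfp57, which keeps methylation at imprinted loci, stood at 12.06 and 11.90 in scramble at 0 h and at 11.40 and 10.95 at 8 h. Its 8 h changes were -0.80 ± 0.13, -0.61 ± 0.13 and -0.68 ± 0.13 in scramble and the Mettl14 and Mettl3 knockdowns. Zfp445, which shares that imprinting role, changed less, by -0.46 ± 0.08, -0.36 ± 0.08 and -0.39 ± 0.08. Zfp809, which binds the primer binding site of murine leukemia virus, went from 10.13 and 10.05 to 8.96 and 8.80 in scramble, and 43.3%, 49.6% and 48.3% of its signal was left at 8 h in the 3 treatments. Zfp568, a KRAB repressor of a placental Igf2 transcript, was nearly level: it changed by -0.24 ± 0.07 in scramble (limma adjusted p = 0.00914), and its values of -0.12 ± 0.07 and 0.01 ± 0.07 in the knockdowns were not called. With the long-lived transcripts held equal its value in the Mettl3 knockdown was -0.30.

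The members tied to the pluripotent state differed widely. Zfp281, a factor of the stem cell network, lost about as much in every treatment, with 54.3%, 47.7% and 50.7% of the signal left at 8 h. Its levels in scramble were 10.12 and 10.05 at 0 h and 9.26 and 9.14 at 8 h. Zfp217, a zinc finger protein known to bind Mettl3, went from 8.05 and 8.27 to 6.76 and 6.85 in scramble, with 39.2% left, and 50.4% and 47.2% were left in the knockdowns. Zfp462 changed by -0.45 ± 0.05, -0.43 ± 0.05 and -0.42 ± 0.05. Zfp207, a partner of the mitotic checkpoint protein Bub3, stayed between 11.98 and 12.15 on every array of the time course. Its change at 8 h was called in the Mettl14 knockdown alone, at -0.13 ± 0.05, and was -0.05 ± 0.05 and -0.10 ± 0.05 in scramble and the Mettl3 knockdown. Zfp706, a small zinc finger protein needed for exit from the stem cell state, changed by -0.17 to -0.27 in its brightest probe set, but by 0.11 to 0.35 in the mean of its probe sets, so its direction is uncertain.

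Of the other described members, Zfp292 and Zfp131 lost most. Zfp292 went from 9.91 and 9.90 to 8.10 and 7.82 in scramble, and 26%, 28.9% and 35.3% of the signal was left in scramble and the Mettl14 and Mettl3 knockdowns. Zfp131 had 32.8%, 38.8% and 40.6% left. Zfp148, which binds GC-rich promoters, had 46.6%, 56.1% and 58% left, and Zfp407 47.9%, 49.7% and 53.4%. Zfp110, which binds the neurotrophin receptor p75, changed by -0.75 ± 0.08 in scramble, whereas Zfp369, a relative that binds the same receptor, was not called at -0.07 ± 0.08. Zfp326, a subunit of a complex that travels with RNA polymerase, and Zfp219 were not called in scramble either, at -0.04 ± 0.09 and -0.08 ± 0.06.

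Zinc finger genes under other names had similar values. A list of 89 such genes of level 7 or more (Zbtb, Zscan, Zkscan, Klf, Sall, Prdm and like symbols) had 65 lower in scramble at 8 h and a median change of -0.72, against -0.73 for the members. In the knockdowns the medians were -0.49 and -0.51. The 66 dimmer Zfp genes that were tested had 38 lower in scramble at 8 h and a median of -0.52, with 30 and 33 lower in the knockdowns. Of all genes tested 21.6% were lower in scramble at 8 h, and 19.4% and 19.2% in the knockdowns. No test of a difference between these lists was made.

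The corepressors through which KRAB proteins act did not move as a group over the time course. Of 28 tested, 11 were lower and 10 higher in scramble at 8 h, where 21.6% and 39.2% of all genes were, with a median of 0.05. Trim28, the KRAB partner, changed by 0.17 ± 0.04, 0.18 ± 0.04 and 0.13 ± 0.04 in scramble and the Mettl14 and Mettl3 knockdowns, values within the shift that the long-lived transcripts give, and Setdb1 was not called in scramble at 0.01 ± 0.05. Among those lower in all 3 treatments was Smarcad1, a chromatin remodeller, at -0.90 ± 0.05, -1.13 ± 0.05 and -1.11 ± 0.05. Tasor, a subunit of the silencing complex HUSH, was another, at -0.81 ± 0.06, -1.01 ± 0.06 and -0.93 ± 0.06. Resf1, Morc3 and Atf7ip, which take part in retroelement silencing, were also lower in all 3, at -0.76, -0.78 and -0.84 in scramble. So were Daxx, Trim33, Zmym2, Ehmt1 and Morc2a, at -1.05, -0.43, -0.34, -0.22 and -0.18 in scramble. Over the same hours the mean of 7 stem cell markers went from 10.59 to 10.24 and 10.06 in scramble. Sox2 (12.49 to 9.81 at 8 h) and Pou5f1 (9.34 to 8.59) carried most of it, while Nanog (12.80 to 12.83), Tdgf1 (12.73 to 12.80) and Dppa5a (5.73 to 5.82) were not lower. The mean of 14 fibroblast markers went from 6.36 to 6.555 and 6.665, and their part in the members' changes was not tested. In the Mettl14 and Mettl3 knockdowns at 0 h 12 and 8 of the 28 corepressors were lower in the time course, and 7 and 6 in the repeat set. Of all genes 16.9% to 20.1% were. Higher were 4, 2, 4 and 5 in the same order, where 17.9% to 19.4% of all genes were. Trim28 was lower in all 4, at -0.34, -0.20, -0.21 and -0.20.

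Whether a knockdown altered the loss was tested as the difference between its change and that of scramble. At 4 h no member was called in either knockdown, where 0.0338% of all genes were lower and 0.0744% higher for Mettl14, and 0.0473% and 0.0135% for Mettl3 (limma), and 23 and 30 members (9.91% and 12.9%) had an unadjusted p below 0.05, against 8.61% and 8.47% of all genes tested. At 8 h 14 members were called higher and 1 lower in the Mettl14 knockdown, where 3.58% and 1.41% of all genes were, and 10 higher and 2 lower in the Mettl3 knockdown, where 2.46% and 1.01% were. Higher here means that less was lost, or more gained, than in scramble. The members' median difference at 8 h was 0.15 for Mettl14 and 0.16 for Mettl3, against 0.01 for all genes tested in each. Against genes of like level the medians were 0.12 in both. As shares, 6.03% and 4.31% of the members were higher, against 4.76% and 3.25% of other genes of level 7 or more. Of the 89 zinc finger genes under other names 10.1% were higher in each knockdown, with medians of 0.15 and 0.19. The pair of comparisons share the scramble arrays, so they are not independent of each other.

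These counts were the least stable in the data. With the long-lived transcripts held equal, no member was called higher in either knockdown. Over all genes tested the calls higher then went from 530 to 139 for Mettl14 and from 364 to 113 for Mettl3. Leaving out the first scramble array of 0 h took the 14 of Mettl14 down to 3, and leaving out the first Mettl3 knockdown array of 8 h took the 10 of Mettl3 down to 1, while leaving out the first scramble array of 8 h gave 19 and 17.

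Zfp592, whose human counterpart belongs to a complex around the chromatin reader ZMYND8, had the smallest adjusted p in both comparisons. Its level in scramble was 9.07 on both arrays at 0 h, 8.52 and 8.55 at 4 h, and 8.13 on both at 8 h. In the Mettl14 knockdown it was 9.36 and 9.29, then 9.04 and 9.04, then 8.86 and 8.98. In the Mettl3 knockdown it was 9.40 and 9.48, then 9.20 and 9.33, then 9.09 and 8.98. At every time both arrays of each knockdown were above both of scramble, and the gap was widest at 8 h. The difference of the 8 h change was 0.54 ± 0.09 for Mettl14 (limma adjusted p = 0.00458) and 0.54 ± 0.09 for Mettl3 (adjusted p = 0.00634), with 52% of the signal left in scramble against 75.8% and 75.7%. It was called whichever single array was left out, and was 0.51 and 0.52 but not called with the long-lived transcripts held equal. Its upstream 250 bases, chr7:80993434-80993683 on the plus strand of GRCm38.p6 from RefSeq, hold 33 CG dinucleotides, in capitals, and are shown for comparison with Zfp296.
Zfp592 upstream: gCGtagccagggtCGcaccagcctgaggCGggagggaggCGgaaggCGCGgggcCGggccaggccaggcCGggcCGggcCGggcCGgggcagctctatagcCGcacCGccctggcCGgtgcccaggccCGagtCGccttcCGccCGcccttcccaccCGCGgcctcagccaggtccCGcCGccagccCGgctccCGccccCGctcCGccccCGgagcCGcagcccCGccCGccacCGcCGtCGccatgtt

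Zfp202 and Zfp646 were also called in the 8 h comparison of each knockdown. Zfp646 went from 9.60 and 9.57 to 8.33 and 8.23 in scramble, from 9.47 and 9.51 to 8.61 and 8.60 in the Mettl14 knockdown and from 9.66 and 9.50 to 8.74 and 8.63 in the Mettl3 knockdown. At 8 h the arrays of both knockdowns lay above those of scramble, whereas at 0 h those of the Mettl14 knockdown lay just below them and those of the Mettl3 knockdown on either side. Its differences were 0.42 ± 0.09 and 0.41 ± 0.09, calls lost on leaving out any of 6 and 5 arrays. Zfp202 gave 0.52 ± 0.13 and 0.63 ± 0.13, and its Mettl14 call was lost on leaving out any of 14 of the 18 arrays. Zfp141 gave 0.51 ± 0.09 and Zfp438 0.57 ± 0.12 for Mettl14, where Mettl3 gave 0.37 ± 0.09 and 0.47 ± 0.12 without a call. Zfp940 gave 0.55 ± 0.11 and Zfp532, the human form of which sits in the same complex as that of Zfp592, gave 0.33 ± 0.07 for Mettl3, where Mettl14 gave 0.41 ± 0.11 and 0.25 ± 0.07 without a call. Zfp35 changed by -0.19 ± 0.07 in scramble and by 0.33 ± 0.07 and 0.24 ± 0.07 in the knockdowns, with differences of 0.52 ± 0.10 and 0.44 ± 0.10. The rises of Zfp35 in the knockdowns turned to -0.0012 and -0.0694 with the long-lived transcripts held equal, and its Mettl3 difference was lost on leaving out any of 11 arrays.

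Zfp608 was called in the other direction in both knockdowns. It reached the level minimum only through the knockdown arrays, with a mean of 6.59 over the 10 scramble arrays and 7.47 over the 16 knockdown arrays, so its higher start in the knockdowns is in part set by how members were selected. It stood at 6.23 and 6.20 in scramble at 0 h and at 5.96 and 6.49 at 8 h, a change of 0.01 ± 0.16. In the Mettl14 knockdown it began at 7.74 and 7.75 and ended at 6.82 on both arrays, and in the Mettl3 knockdown it began at 7.91 and 8.16 and ended at 6.80 and 6.94. The scramble level lay close to 6.00, the lowest mean level kept for testing, while single values on the arrays reached down to 0.75. How well a fall from there could be measured was not tested. The differences of its 8 h change were -0.94 ± 0.22 (limma adjusted p = 0.0319) and -1.18 ± 0.22 (adjusted p = 0.0131). The Mettl14 call was lost on leaving out any of 7 of the 18 arrays, and the Mettl3 call on leaving out 1. Zfp689 was the other member lower for Mettl3, at -0.42 ± 0.09.

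**Figure D4:**
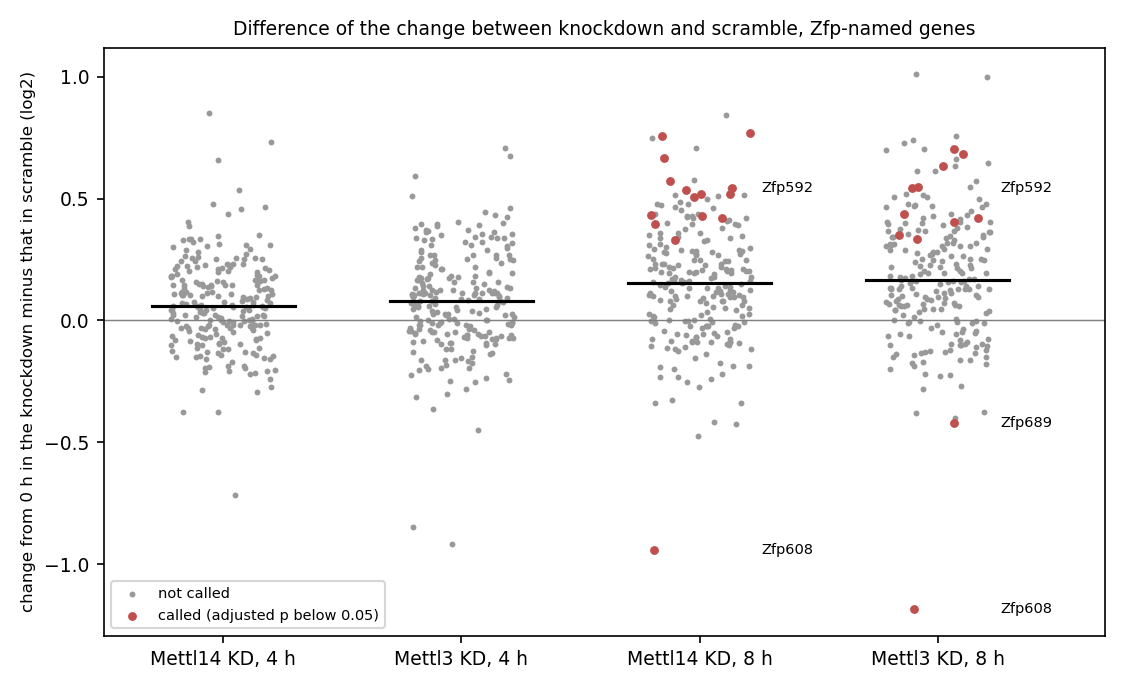
The log2 change from 0 h in a knockdown minus that in scramble is plotted for each of the 232 Zfp-named genes at 4 and 8 h, with medians as black lines and called genes as larger red points. At 8 h the medians are 0.15 and 0.16, with 14 and 10 genes called higher and 1 and 2 lower. No gene is called at 4 h.

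The knockdowns at 0 h left the members close to the control on balance. In the time course 46 members were lower and 20 higher in the Mettl14 knockdown, where 20.1% and 19.4% of all genes were, and 53 were lower and 22 higher in the Mettl3 knockdown, where 18.6% and 19.3% were. In the repeat set the counts were 44 lower and 30 higher for Mettl14, where 16.9% and 19.4% of all genes were, and 49 and 24 for Mettl3, where 17.4% and 17.9% were. As shares, 19% to 22.8% of the members were lower, near the shares of all genes, and 8.62% to 12.9% were higher, below them. These counts rest on few arrays. Without the second Mettl14 knockdown array of 0 h 23 members were lower in the time course for Mettl14, and without the first Mettl3 knockdown array of 0 h 33 were for Mettl3. Without the repeat controls described as 4 h the repeat set had 29 lower and 13 higher for Mettl14 and 27 and 10 for Mettl3. The median changes of the members were -0.05, -0.08, -0.05 and -0.03. With the long-lived transcripts held equal the medians were -0.03, -0.01, -0.02 and -0.01. In the time course 28 and 32 members were then lower, where 2122 and 1508 of the 14787 genes tested were.

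Marker genes of stem cells and fibroblasts had the following values beside the knockdown effects. The mean level of 7 stem cell markers was 10.59 in the time-course control at 0 h and 10.10 and 10.07 in the knockdowns, and in the repeat set it was 10.47 and 10.48 in the controls and 10.10 in both knockdowns. Of the 6 stem cell markers tested, 4 and 5 were called lower in the time course and 6 and 5 in the repeat set, with 0 higher. Of all genes 16.9% to 20.1% were lower in these comparisons. The mean of 14 fibroblast markers went from 6.36 to 6.56 and 6.49 in the time course, and from 6.65 to 6.73 and from 6.49 to 6.66 in the repeat set, with 3, 3, 2 and 3 of the 11 tested called higher and 0, 1, 1 and 1 lower. The shares higher, 18.2% to 27.3%, lay near the 17.9% to 19.4% of all genes called higher. In the time-course control the collagen gene Col1a1 stood at 7.31, while the fibroblast genes Lum, Postn and Dcn were dim, at 4.07, 4.86 and 4.92. Their part in the members' changes was not tested, and in a bulk sample fewer cells of a type and less RNA per cell cannot be told apart.

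The knockdown effects of the sets, which share no array, were similar in order. Across the 232 members they correlated at r = 0.613 for Mettl14 and r = 0.62 for Mettl3, against 0.662 and 0.756 over all genes tested. For Mettl14 26 members were lower and 10 higher in both sets, where 9.91% and 11.3% of all genes were. The 26 are 56.5% of the 46 lower in the time course and 59.1% of the 44 lower in the repeat set, and the 10 are 50% of the 20 and 33.3% of the 30 higher. For Mettl3 27 were lower and 15 higher in both sets, where 11% and 11.9% of all genes were. The 27 are 50.9% of the 53 and 55.1% of the 49 lower, and the 15 are 68.2% of the 22 and 62.5% of the 24 higher.

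**Figure D5:**
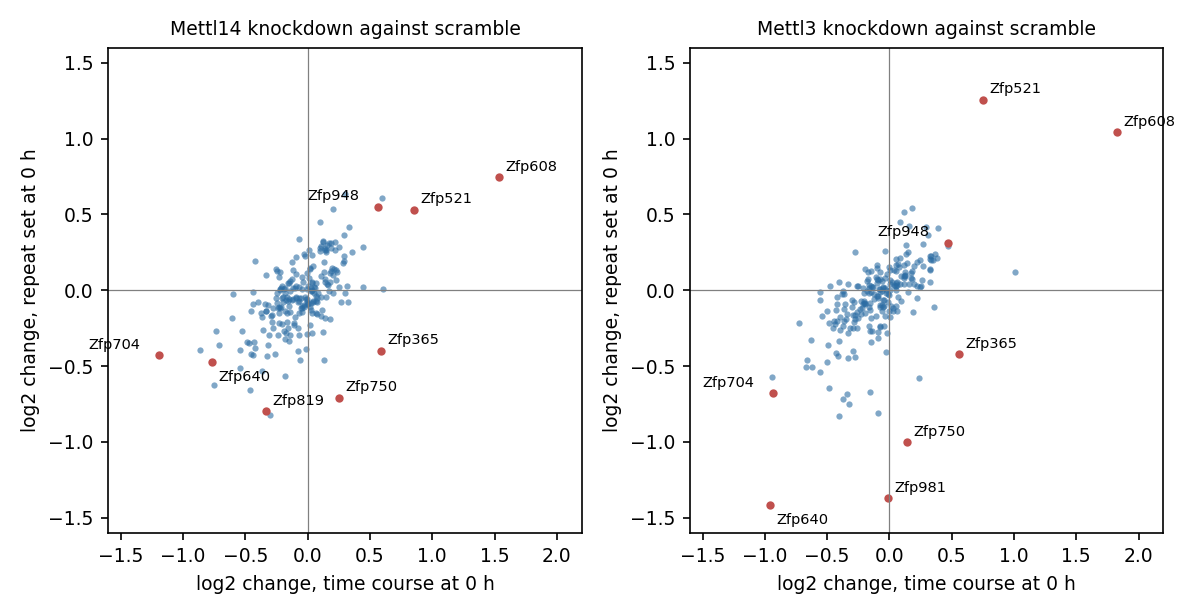
The log2 change in a knockdown against scramble at 0 h is plotted for each of the 232 Zfp-named genes, with the time course on the horizontal axis and the repeat set on the vertical axis, for Mettl14 (left) and Mettl3 (right). Zfp608 and Zfp521 lie at the upper right and Zfp640 and Zfp704 at the lower left in both, while Zfp365 is higher in the time course and lower in the repeat set.

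The 6 members (2.59%) that were higher in every knockdown comparison at 0 h were Zfp608, Zfp521, Zfp948, Zfp275, Zfp592 and Zfp609, where 8.36% of all genes were. The time-course comparisons share their control arrays. Zfp608 and Zfp521 are among 6 members whose mean over the scramble arrays alone was below 7, so their rises are given as a description. Zfp608 had the largest rise, from 6.23 and 6.20 to 7.74 and 7.75 in the Mettl14 knockdown and 7.91 and 8.16 in the Mettl3 knockdown, both of the time course. In the repeat set it went from 7.38 and 7.15 to 7.94 and 8.09, and from 7.03 and 6.87 to 7.78 and 8.20. The knockdown arrays stood at like levels in both sets, and the controls of the repeat set were brighter than those of the time course. The effects were 1.53 ± 0.16 and 1.82 ± 0.16 in the time course and 0.75 ± 0.15 and 1.04 ± 0.15 in the repeat set, the third of which lost its call without the second control array of the repeat set. Zfp609, its close relative, changed by 0.29 ± 0.07, 0.24 ± 0.07, 0.18 ± 0.05 and 0.20 ± 0.05 in the same order, calls that 1 to 7 single arrays ended.

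Zfp521, a cofactor of early B-cell factor proteins in neural and mesenchymal lineages, went from 6.86 and 6.98 to 7.92 and 7.62 in the Mettl14 knockdown and to 7.76 and 7.57 in the Mettl3 knockdown, both of the time course. In the repeat set it went from 7.34 and 7.45 to 7.90 and 7.95, and from 7.08 and 7.14 to 8.33 and 8.41. Its mean was 6.965 over the scramble arrays and 7.61 over the knockdown arrays. No knockdown array overlapped its controls. In a single comparison 32.7% to 34.9% of all genes tested were higher without overlap. The effects were 0.85 ± 0.18, 0.75 ± 0.18, 0.53 ± 0.06 and 1.26 ± 0.06. Its paralog Zfp423, which works with Smad proteins in BMP signalling, was instead lower in 3 of the 4 comparisons, by 0.26 ± 0.06, 0.48 ± 0.06 and 0.42 ± 0.11, and was 0.03 ± 0.11 for Mettl3 in the repeat set. The third of these calls, for Mettl14 in the repeat set, was lost on leaving out any of the 4 arrays compared. Zfp948, Zfp275 and Zfp592 had effects between 0.23 and 0.56.

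In every comparison 17 members (7.33%) were lower, where 7.16% of all genes were. Those named were Zfp640, Zfp704, Zfp229, Zfp428, Zfp710, Zfp819, Zfp74 and Zfp931. Zfp640 went from 11.03 and 11.09 to 10.39 and 10.19 in the Mettl14 knockdown and 10.01 and 10.18 in the Mettl3 knockdown, and in the repeat set from 10.31 and 10.29 to 9.81 and 9.84 and from 10.41 and 10.36 to 8.87 and 9.06. Its effects were -0.77 ± 0.14, -0.96 ± 0.14, -0.47 ± 0.07 and -1.42 ± 0.07. Zfp704 went from 9.35 and 9.32 to 8.11 and 8.18 and to 8.45 and 8.35 in the time course, with effects of -1.20 ± 0.09 and -0.94 ± 0.09, and had -0.43 ± 0.05 and -0.68 ± 0.05 in the repeat set. The groups did not overlap for either gene in any comparison. In a single comparison 34.1% to 35% of all genes tested were lower without overlap.

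Zfp819, a KRAB protein of pluripotent cells that represses transposable elements, changed by -0.34 ± 0.11 and -0.41 ± 0.11 in the time course and by -0.80 ± 0.05 and -0.83 ± 0.05 in the repeat set. Each of its time-course calls was lost on leaving out either of 2 arrays. Zfp428, Zfp710, Zfp74 and Zfp229 had effects between -0.36 and -0.94, and Zfp931 between -0.37 and -0.66. Among the members with described roles, Zfp296 was lower in all 4 comparisons too, at -0.54 ± 0.09, -0.63 ± 0.09, -0.40 ± 0.06 and -0.33 ± 0.06, and so was Zfp219, at -0.36 ± 0.06, -0.44 ± 0.06, -0.27 ± 0.06 and -0.22 ± 0.06. Each repeat-set call of Zfp219 was lost on leaving out either of 2 arrays, and that for Mettl3 also without the controls described as 4 h. Zfp809 had -0.17 ± 0.09, which was not called, then -0.40 ± 0.09, -0.28 ± 0.05 and -0.26 ± 0.05. Zfp57 had -0.31 ± 0.13, which was not called, then -0.42 ± 0.13, -0.29 ± 0.04 and -0.20 ± 0.04.

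The difference between the sets was tested itself. The Mettl14 effect was lower in the time course for 10 members and higher for 9, where 8.64% and 7.86% of all genes were, and the Mettl3 effect was lower for 7 and higher for 9, where 3.66% and 6.15% were. Zfp365, which encodes a centrosomal protein of neurons, gave the smallest adjusted p for both. It stood at 8.35 and 8.33 in the time-course control and at 8.98 and 8.87 in the Mettl14 knockdown and 8.83 and 8.96 in the Mettl3 knockdown. In the repeat set it went from 8.11 and 8.13 to 7.74 and 7.70 and from 7.91 and 7.99 to 7.47 and 7.59. So both knockdowns raised it in the time course, by 0.59 ± 0.07 and 0.56 ± 0.07, and lowered it in the repeat set, by 0.40 ± 0.06 and 0.42 ± 0.06. The sets differed by 0.99 ± 0.09 and 0.98 ± 0.09 (limma adjusted p = 2.17e-06 and 4e-06). Zfp462 was the other member with opposite calls, for Mettl3, at -0.14 ± 0.05 and 0.12 ± 0.04, but the second of these was lost on leaving out any of the 8 arrays.

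Zfp750, a regulator of epidermal differentiation, was lowered in the repeat set alone, from 7.81 and 7.93 to 7.03 and 7.29 for Mettl14 and from 7.83 on both arrays to 6.85 and 6.81 for Mettl3, and the sets differed by 0.96 ± 0.14 and 1.14 ± 0.14. Zfp981 and Zfp992, neighbours in a run of Zfp genes, fell more in the repeat set. Zfp981 went from 10.54 and 10.36 to 8.97 and 9.18 in the Mettl3 knockdown of the repeat set, and its time-course levels of 9.92 and 9.82 in that knockdown overlapped the control's 9.86 and 9.90. The sets differed by 1.36 ± 0.15 for Mettl3 and 0.52 ± 0.15 for Mettl14. For Zfp992 they differed by 0.72 ± 0.07 and 0.38 ± 0.07, and for Zfp979, in another run, by 0.81 ± 0.14 for Mettl3, a call lost with the mean of its probe sets. Genes of such runs are close copies, and whether their probes can tell them apart was not tested. Zfp704 and Zfp710 fell more in the time course for Mettl14, by -0.77 ± 0.12 and -0.47 ± 0.09 as the difference of the effects. Whatever else differed between the sets cannot be told apart from the set itself.

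The genomic arrangement of the members, looked at after the values were known, is given as a description. By the gene order of the RefSeq annotation, 231 members were found among protein-coding genes and 113 of them stood next to another Zfp gene. All Zfp genes of the annotation, members or not, formed 52 runs of 2 or more neighbours. How many of these runs held a member was not counted. The median 8 h change in scramble was -0.85 for those 113, with 96 lower, and -0.63 for the 118 others, with 86 lower. In the knockdowns it was -0.65 and -0.65 against -0.52 and -0.46. The longest run held 15 genes from Zfp84 to Zfp146, and its 10 members had 8 h changes in scramble from -2.33 (Zfp566) to -0.24 (Zfp568).

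The start regions of the members were read from RefSeq for GRCm38.p6, as windows of 300 bases of which 250 lie before the start. Of the 232 members 189 matched, with 231 windows. The observed over expected CG ratio had a median of 0.687 in the members, 0.769 in other genes of level 7 or more and 0.384 in all 32851 windows, and the GC content was 55.7%, 61.7% and 52.7%. The letters CCGGAAG, the core bound by ETS factors, were found on either strand in 20.8% of the members' windows, in 18% of those of other genes of level 7 or more and in 8.86% of all windows. The letters ACTACAA, from the element bound by Zfp143, were found in 8.23%, 4.3% and 3.24%, and TATAAA in 8.66%, 6.73% and 13.6%. The letters AAGATGGCG, bound by Yy1, were found in 3.9%, 3.21% and 1.4%, the palindrome bound by Nrf1 in 3.46%, 2.1% and 0.971%, and that bound by Zbtb33 in 0.433%, 1.09% and 0.466%. None of the 6 was found in the printed bases of Zfp296 or Zfp592. A match is a description of letters and not a binding site.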

How the data were processed

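Per the submitters' processing notes, the authors normalized the Affymetrix arrays by RMA with the oligo package, and the deposited values are log2 signals. Probe sets were paired with genes through the platform annotation given with the data: 23521 of 41345 probe sets had 1 symbol, 1814 had several and 16010 were not listed. Each gene was represented by its brightest probe set over the 26 arrays, and the 7393 dimmest of the 22180 genes were left out, leaving 14787 tested. The time course and the repeat set were fitted separately in R 4.3.3 with the linear models of limma 3.58.1 and its moderated variances (1 mean per group, 9 and 4 residual degrees of freedom), and the difference between sets in 1 fit of the 13 groups (13 residual degrees of freedom). A gene was called at a Benjamini-Hochberg adjusted p below 0.05 over all genes tested. With 2 arrays a group, a p-value rests only on how far these arrays spread, which may be technical.

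On simulated data for scramble at 8 h over 14787 genes, all changes of 1 unit (100%) and 72% of those of 0.5 were recovered. There 14587 genes had no change, whereas in the real comparison 3197 were called lower and 5799 higher. The adjustment of p depends on how many genes change, so these shares need not hold for the real calls. The members and gene lists were chosen with earlier results of these data known. Named genes were those with described roles, the 8 largest mean losses and 6 smallest losses or rises at 8 h, up to 8 rises and 8 falls called in all 4 knockdown comparisons, the 5 smallest adjusted p of each tested difference, and the members nearest the level minimum or brightest; Zfp462, Zfp689, Zfp646, Zfp202, Zfp35 and others called in a difference are named after their values were seen. Protein features were not analysed here. Alternatives covered left-out arrays, a replicate block, scaling, filters, probe set choice, the fit and the level minimum.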

Additional observations from a re-analysis of the deposited data

Results flagged for a closer look

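The 8 h change in a knockdown differed from that in scramble by the test of the difference itself for the members named here. For Mettl14 the differences were 0.54 for Zfp592, 0.51 for Zfp141, 0.52 for Zfp35, 0.57 for Zfp438, 0.42 for Zfp646, 0.43 for Zfp710, 0.52 for Zfp202 and -0.94 for Zfp608. For Mettl3 they were 0.54 for Zfp592, 0.55 for Zfp940, 0.33 for Zfp532, 0.63 for Zfp202, 0.41 for Zfp646, 0.44 for Zfp35 and -1.18 for Zfp608. Both comparisons use the same scramble arrays. Of those above 0, none was called with the long-lived transcripts held equal, and Zfp710 for Mettl14 was lost on leaving out any of 14 of the 18 arrays.

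The knockdown effect at 0 h differed between the time course and the repeat set, again by the test of the difference, for these members. For Mettl14 the time-course effect exceeded the repeat effect by 0.99 for Zfp365, 0.96 for Zfp750, 0.43 for Zfp266, 0.38 for Zfp992, 0.52 for Zfp981, 0.46 for Zfp819 and 0.78 for Zfp608, and the difference was -0.77 for Zfp704, -0.58 for Zfp318 and -0.47 for Zfp710. For Mettl3 it was 0.98 for Zfp365, 0.72 for Zfp992, 1.36 for Zfp981, 1.14 for Zfp750, 0.81 for Zfp979 and 0.78 for Zfp608, and -0.51 for Zfp423, -0.27 for Zfp462, -0.37 for Zfp110 and -0.36 for Zfp318. The Zfp608 difference was lost on leaving out any of 6 arrays of 26 for Mettl14 and any of 18 for Mettl3. For Mettl14 that of Zfp981 was lost on leaving out any of 5 arrays and that of Zfp819 any of 6, and for Mettl3 that of Zfp110 any of 11 and that of Zfp318 any of 14. These 4, and Zfp462 for Mettl3, were also lost with the long-lived transcripts held equal. The Zfp979 difference was lost with the mean of its probe sets.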

How the results depend on the processing

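The counts of members lower over time stayed within 1.5 times under every alternative but the level minimum of 8, which keeps fewer members by construction. Leaving out 1 array gave 132 to 154 lower in scramble at 4 h, 166 to 184 at 8 h, 118 to 143 and 143 to 164 in the Mettl14 knockdown, and 114 to 139 and 144 to 163 in the Mettl3 knockdown. Members higher ranged from 5 to 12 and 7 to 11 in scramble at 4 and 8 h, 8 to 12 at 4 h for Mettl14 and 7 to 14 at 4 h for Mettl3. The median difference from genes of like level ranged from -0.88 to -0.76 in scramble at 8 h, -0.62 to -0.52 and -0.80 to -0.69 for Mettl14 at 4 and 8 h, and -0.56 to -0.50 and -0.71 to -0.66 for Mettl3. At 0 h, lower and higher ranged from 23 to 49 and 9 to 22 for Mettl14 and 33 to 55 and 12 to 24 for Mettl3 in the time course, and from 28 to 45 and 15 to 27 and from 31 to 45 and 13 to 21 in the repeat set. The lowest time-course counts lower came without the second Mettl14 knockdown array and without the first Mettl3 knockdown array of 0 h. The differences from scramble at 8 h ranged from 0 to 2 lower and 3 to 19 higher for Mettl14 and 0 to 2 and 1 to 17 for Mettl3, and those between sets from 4 to 11 lower and 5 to 12 higher for Mettl14 and 3 to 8 lower for Mettl3.

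With a level minimum of 8, 75, 91, 69, 80, 70 and 82 members were lower at 4 and 8 h in scramble, Mettl14 and Mettl3. At 0 h 29 were lower and 12 higher for Mettl14 and 14 higher for Mettl3 in the time course, and 15 and 14 higher in the repeat set. The differences from scramble were 0 lower and 7 higher, and 0 and 6, and those between sets 6 lower and 5 higher, and 5 higher. With a minimum of 6, the like-level medians were -0.79 in scramble at 8 h, -0.53 and -0.66 for Mettl14 and -0.48 and -0.64 for Mettl3.

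With the long-lived transcripts held equal, members higher were 0 and 2 in scramble, 2 and 2 for Mettl14 and 1 and 2 for Mettl3. At 0 h 28 and 32 were lower in the time course. The differences from scramble had 0 higher for Mettl14, and 1 lower and 0 higher for Mettl3, and those between sets 6 lower and 5 higher for Mettl14 and 2 lower for Mettl3. Single values turned to the other side of 0 for Zfp106 (-0.17 in scramble at 8 h, -0.10 and -0.0985 for Mettl14, -0.11 and -0.0885 for Mettl3), Zfp277 (-0.0715 for Mettl14 at 4 h, -0.0187 and -0.0315 for Mettl3), Zfp853 (-0.0295 and -0.0244 at 8 h), Zfp35 (-0.0012 and -0.0694), Zfp580 (-0.0048 for Mettl3 at 4 h), Zfp365 (-0.0256) and Zfp768 (-0.31) for Mettl14 at 8 h, and Zfp326 (-0.27), Zfp423 (-0.29), Zfp568 (-0.30) and Zfp704 (-0.00051) for Mettl3 at 8 h.

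With no filter on dim genes, 8 and 9 were higher at 4 h in the knockdowns, and 14 and 15 in the repeat set. The differences from scramble were then 0 lower and 3 higher and 1 lower and 2 higher, and those between sets 6 lower and 5 higher and 3 lower. Quantile normalization again gave 8 and 9 higher at 4 h, 17 higher for Mettl14 in the repeat set, 1 lower for the Mettl3 difference and -0.0113 for Zfp106 in scramble at 8 h. Without the repeat controls described as 4 h, the repeat set had 29 lower and 13 higher for Mettl14 and 27 and 10 for Mettl3, and the sets differed for 4 lower and 5 higher and for 3 lower. The mean of probe sets gave 2 lower for the Mettl14 difference, -0.14 and -0.0551 for Zfp526 in scramble, and for Zfp706 0.39 and 0.35, 0.36 and 0.11, and 0.41 and 0.35 at 4 and 8 h in the 3 treatments. A robust fit with trend gave 2 lower for Mettl14 and 1 lower and 19 higher for Mettl3, and 1 fit over 26 arrays 2 lower and 22 higher, and 27 higher. The cause of these differences was not tested.

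With the replicate block no count of calls moved by over 1.5 times (181 lower in scramble at 8 h, 11 higher for the Mettl14 difference). Same-numbered arrays deviated with correlations of -0.436 to 0.335 in the time course and -0.0475 to 0.0425 in the repeat set, so the numbers are not shown to pair the samples. The low signal of dim members limits how far a further loss could be measured.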
